A study of Mus musculus with 3 samples.

Results

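The regions described here are H3K27ac peaks at the top of the deposited score scale that lie outside H3K4me3 but not far from it. They were chosen by 3 measured values: a score of 3100 or more, no base shared with any H3K4me3 peak, and at most 100000 bp to the nearest H3K4me3 peak on the same chromosome. The rule left 563 of the 29468 H3K27ac peaks (1.91%). They covered 3.18 Mb, or 4.83% of the H3K27ac peak length. They are called H3K4me3-free ceiling peaks below, because 3100 is the value at which most high scores are tied.

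The data come from chromatin immunoprecipitation and sequencing of a cultured mouse model of acute lymphoblastic leukaemia of B-cell precursors, in which the disease is driven by the always-active tyrosine kinase Bcr-Abl. The cells received no stimulation or treatment and grew in RPMI medium with 10% serum, glutamine and β-mercaptoethanol. The 3 libraries were 1 for H3K27ac, 1 for H3K4me3 and 1 for control IgG, all from cells fixed with formaldehyde (11%, as labelled). No strain, age, sex or number of clones or cultures is given by the labels. The H3K4me3 list held 18142 peaks, and sequencing depth is unknown. Each mark has a single library and thus no spread between replicates, so all values are descriptions of these 2 lists and no test was made. Exact (Clopper-Pearson) intervals for shares and order-statistic intervals for medians, both at 95%, cover counting error only and treat peaks as independent, although neighbouring peaks share a locus.

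H3K27ac is acetylation of lysine 27 of histone H3, placed mainly by the acetyltransferases p300 and CBP at active promoters and active enhancers. H3K4me3, trimethylation of lysine 4, is placed by SET1 and MLL complexes and is concentrated at promoters. Acetylated positions that lack H3K4me3 are therefore often taken as candidate enhancers, and clusters of them along a chromosome as candidate super-enhancers. In precursor B cells such elements are known to be bound by lineage factors such as Pax5, Ebf1 and E2A. The name enhancer-like rests here on the absence of an H3K4me3 peak alone. H3K4me1, p300 and open chromatin, which mark enhancers more directly, were not measured in this series, and H3K4me3 below the calling limit cannot be seen in a peak list. Genes are not named at these peaks because no annotation of the mm9 build was used. All positions are given on mm9, counted from 1.

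The 2 parts of the rule removed very different numbers of peaks. Of all H3K27ac peaks, 7106 (24.1%) scored 3100 or more, and 14059 (47.7%) shared no base with H3K4me3. Only 652 peaks met both conditions, and 89 of these lay more than 100 kb from H3K4me3. Of the 563 that remained, 537 scored exactly 3100 and 26 scored between 3101 and 3230. The score is not defined by a header or label, and peaks tied at 3100 cannot be ranked by it. Just under the limit, the highest score among peaks without H3K4me3 within 100 kb was 3098, the tenth highest was 3066, and 27 peaks scored between 3000 and 3100. The distance limit cut through a sparse stretch of values. The farthest peak inside it was 99.99 kb from H3K4me3, and the nearest one outside was 109 kb away. The nearest H3K4me3 peak inside the rule was 294 bp from the edge of its H3K27ac peak. On the other side of that condition, the smallest length that a ceiling H3K27ac peak shared with H3K4me3 was 295 bp.

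H3K4me3-free ceiling peaks were wide. Their median width was 4917 bp (interval 4680 to 5111 bp, quartiles 3890 and 6420 bp), and the range ran from 2110 to 33761 bp. Ceiling peaks that shared bases with H3K4me3, of which there were 6454, were narrower, at a median of 3369 bp (interval 3324 to 3415 bp). The 89 ceiling peaks more than 100 kb from H3K4me3 had a median of 4641 bp (interval 4128 to 5263 bp), which overlapped the interval of the H3K4me3-free ceiling peaks nearer to it. The 11695 H3K4me3-free peaks within 100 kb that scored below 3100 had a median of 1203 bp (interval 1183 to 1223 bp). The plot of widths shows the 2 classes of H3K4me3-free ceiling peaks running together, to the right of ceiling peaks with H3K4me3. Width and score come from the same peak call, so width is no independent measure of the selection.

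**Figure D1:**
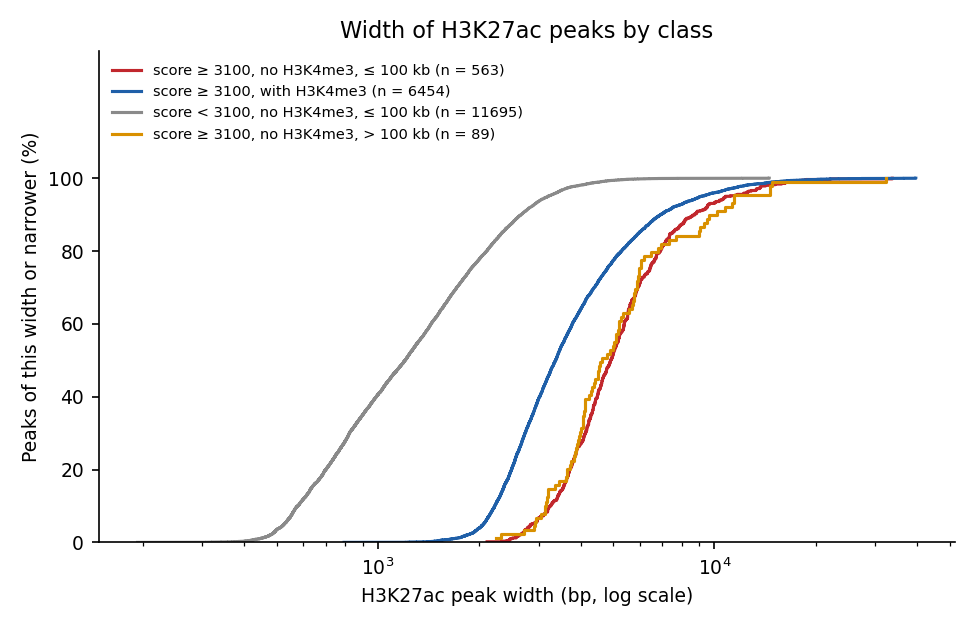
Cumulative percentage of H3K27ac peaks (vertical axis) at or below each width in bp (horizontal axis, log scale), with 1 line per class of peaks. The line of the 563 H3K4me3-free ceiling peaks lies to the right of the 6454 ceiling peaks with H3K4me3 over most of its length, with medians of 4917 and 3369 bp.

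How closely the score limit follows width can be read from all H3K4me3-free peaks within 100 kb of H3K4me3. None of the 4745 peaks under 1000 bp and none of the 4345 peaks of 1000 to 2000 bp reached 3100 (upper limits 0.0777 and 0.0849%). The share at or above 3100 was 6.03% of 2536 peaks of 2000 to 4000 bp, 55.2% of 449 peaks of 4000 to 6000 bp and 86.7% of 143 peaks of 6000 to 10000 bp. At 10000 bp or more it was 38 of 40 peaks. These 38 made up 6.75% (interval 4.82 to 9.15%) of the H3K4me3-free ceiling peaks, whereas 1.04% of all H3K27ac peaks were that wide. Peaks that scored above 3100 were not the wide ones: the median of these 26 was 3873 bp (interval 3217 to 4741 bp), against 4993 bp (interval 4770 to 5184 bp) for the 537 tied at 3100. The 50 H3K4me3-free peaks with the highest scores under 3100 had a median width of 3595 bp.

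The widest H3K4me3-free ceiling peak covered 33.8 kb on chromosome 15 (63430698 to 63464458). Another H3K27ac peak began 5 bp from its edge. Its stitched region held 14 H3K27ac peaks and 86.9 kb of H3K27ac, the widest peak itself included. Its nearest H3K4me3 peak, 14.3 kb away, scored only 182, and the nearest H3K4me3 peak at the ceiling was 363 kb away. The next widest measured 22.0 kb on chromosome 16 (81349558 to 81371589). It lay 66.4 kb from an H3K4me3 peak of 592 bp with a score of 90.4, and no H3K4me3 peak at all was found within 50 kb. Next came an 18.7 kb peak on chromosome 14 (26330523 to 26349254), which lay 48.2 kb from an H3K4me3 peak of 5926 bp at the ceiling, with 6 other H3K27ac peaks in between. An 18.1 kb peak on chromosome 11 (44749879 to 44767994) was the next in width and belonged to a stitched region of 21 peaks. Its nearest H3K4me3 peak, 34.4 kb away, scored 889, and the nearest one at the ceiling lay 312 kb away.

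The other 6 of the 10 widest peaks measured between 15.1 and 17.5 kb. They lay on chromosome 12 (116394880 to 116412344), chromosome 4 (149797434 to 149814736), chromosome 13 (13910514 to 13926811), chromosome 3 (135959678 to 135975855) and again on chromosome 4 (149029019 to 149044840 and 46556677 to 46571817). The peak on chromosome 12 had only 1 other H3K27ac peak in its stitched region and an H3K4me3 peak of score 61.8 as its nearest. The peaks on chromosome 3 and at 46556677 on chromosome 4 were 10.9 and 6.85 kb from H3K4me3 at the ceiling. All 10 widest peaks scored exactly 3100, and each had a nearest H3K4me3 peak that itself carried H3K27ac. The 10 widest peaks therefore included some beside high-scoring H3K4me3 and some with only low-scoring H3K4me3 nearby.

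Distances to H3K4me3 were spread over the whole range that the rule allowed. The median was 14.9 kb (interval 12.8 to 17.2 kb), with quartiles of 6.25 and 34.6 kb. Only 9 peaks lay within 1000 bp of H3K4me3, 106 lay between 1 and 5 kb, and 103 between 5 and 10 kb. A further 160 lay between 10 and 25 kb, 105 between 25 and 50 kb and 80 between 50 and 100 kb. H3K4me3-free peaks below the ceiling in the same range had a median distance of 13.1 kb (interval 12.6 to 13.4 kb). The intervals of both classes overlapped. Within 10 kb of H3K4me3 lay 38.7% (interval 34.7 to 42.9%) of the ceiling peaks and 43.0% (interval 42.1 to 43.9%) of those below the ceiling.

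The 5 peaks nearest to H3K4me3 lay at the side of an H3K4me3 peak, and in each case the nearest other H3K27ac peak carried that mark. They were on chromosome 17 (73762578 to 73768376, 294 bp away), chromosome 8 (120016794 to 120020918, 366 bp), chromosome 4 (124380468 to 124383505, 452 bp), chromosome 1 (72259988 to 72262918, 519 bp) and the X chromosome (99267933 to 99272932, 649 bp). On chromosomes 8, 4 and 1 the H3K4me3 peak was at the ceiling, and on chromosome 17 it scored 134. On chromosome 8 only 1 bp separated the H3K4me3-free peak from the next H3K27ac peak, which carried H3K4me3. Over all 563 peaks, 57 (10.1%, interval 7.76 to 12.9%) were linked to an H3K27ac peak with H3K4me3 through gaps of at most 1000 bp. Such links were not counted for other classes.

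At the other end, the 5 most distant peaks lay 94.0 to 99.99 kb from H3K4me3. A peak of 4233 bp on chromosome 16 (93291791 to 93296023) had 19 other H3K27ac peaks between itself and its nearest H3K4me3 peak, which scored 109. A peak of 6024 bp on chromosome 13 (75676920 to 75682943) had none in between, and its nearest H3K4me3 peak carried no H3K27ac. The remaining 3 were on chromosome 6 (70554210 to 70560823), chromosome 15 (74915812 to 74917921) and chromosome 17 (73877229 to 73885470). Of these, the peak on chromosome 15 was the narrowest of all 563, at 2110 bp, and formed a stitched region by itself.

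The H3K4me3 peaks nearest to the H3K4me3-free ceiling peaks ranged from barely called to the ceiling. Their scores had quartiles of 175 and 3100 and a median of 1448. In 242 cases (43.0%, interval 38.9 to 47.2%) the nearest H3K4me3 peak was at the ceiling, and in 86 (15.3%, interval 12.4 to 18.5%) it scored under 100. The corresponding shares for H3K4me3-free peaks below the ceiling were 44.8% (interval 43.9 to 45.7%) and 13.5% (interval 12.9 to 14.2%). Both pairs of intervals overlapped. The median widths of the nearest H3K4me3 peaks were 1784 and 1782 bp. No difference in the score of the nearest H3K4me3 peak between these classes was detectable beyond counting error. Nearly all of the nearest H3K4me3 peaks, 96.6% (interval 94.8 to 98.0%), carried H3K27ac themselves, against 94.3% (interval 93.9 to 94.8%) for peaks below the ceiling.

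The 563 peaks shared 513 nearest H3K4me3 peaks, 88 of them having the same one as another member of the set, with at most 4 at a single H3K4me3 peak. No other H3K27ac peak lay wholly between the 2 marks in 253 cases (44.9%, interval 40.8 to 49.2%), which was not counted for other classes. In 242 of these cases the H3K4me3 peak carried H3K27ac. Such an H3K27ac peak could reach into the gap without being counted. When H3K4me3 peaks below the ceiling were passed over, the median distance to H3K4me3 rose to 34.1 kb (interval 29.6 to 39.5 kb). It was much the same for H3K4me3-free H3K27ac peaks below the ceiling, at 33.7 kb (interval 32.6 to 34.9 kb). The upper quartiles were 84.8 and 82.1 kb. For 119 of the 563 peaks (21.1%) no H3K4me3 peak at the ceiling lay within 100 kb, a share not counted for the other classes. For the 5 peaks with the highest scores, 3197 to 3230, the nearest H3K4me3 peaks scored 59.4 to 274. Among all 563 peaks the quartiles of this score were 175 and 3100. Whether the 5 differ from the rest was not tested. They were on chromosome 9 (61014132 to 61018921 and 92271361 to 92275462), chromosome 3 (98401385 to 98406292), chromosome 10 (19710199 to 19713175) and chromosome 4 (9566565 to 9571928). On chromosome 3 the nearest H3K4me3 peak was 301 bp wide, scored 95.6 and carried no H3K27ac.

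H3K4me3-free ceiling peaks stood in dense acetylated surroundings. Another H3K27ac peak lay within 12.5 kb of 496 of them (88.1%, interval 85.1 to 90.7%), compared with 66.1% of all H3K27ac peaks. The share was 62.7% (interval 61.5 to 63.9%) for ceiling peaks with H3K4me3, 78.3% (interval 77.5 to 79.0%) for H3K4me3-free peaks below the ceiling and 65.2% (interval 54.3 to 75.0%) for the 89 ceiling peaks beyond 100 kb. The median gap to the next H3K27ac peak was 1491 bp (interval 1129 to 1948 bp), against 7193 bp (interval 6806 to 7545 bp) at ceiling peaks with H3K4me3 and 2752 bp (interval 2628 to 2903 bp) at H3K4me3-free peaks below the ceiling. At the 89 ceiling peaks beyond 100 kb it was 2554 bp. Their interval (1022 to 8356 bp) overlapped that of the H3K4me3-free ceiling peaks nearer to H3K4me3. Within 50 kb of either edge there was a median of 13.3 kb of further H3K27ac (interval 12.1 to 14.7 kb). The medians were 6.85 kb at ceiling peaks with H3K4me3, 9.71 kb at H3K4me3-free peaks below the ceiling and 3.50 kb at those 89 ceiling peaks.

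The profile of the flanks shows over what distance this held. At 5 kb outside the edges, 22.8% of the flanks of H3K4me3-free ceiling peaks were covered by an H3K27ac peak, 17.9% of those of H3K4me3-free peaks below the ceiling and 11.3% of those of ceiling peaks with H3K4me3. At 50 kb the values were 10.2, 9.35 and 7.97%, and at 100 kb they were 7.02, 7.70 and 7.10%. The higher cover around H3K4me3-free ceiling peaks was thus seen close to the peak and not at 100 kb. H3K4me3 cover had no fixed order: it was 5.15, 6.30 and 4.72% at 5 kb, 5.60, 4.67 and 4.49% at 20 kb and 3.46, 3.99 and 4.24% at 50 kb, with the classes named as before. The rule asks for an H3K4me3 peak within 100 kb, and the part of this condition in the crowding was not tested. Ceiling peaks beyond that distance had 13.5% of their flanks covered by H3K27ac at 5 kb.

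**Figure D2:**
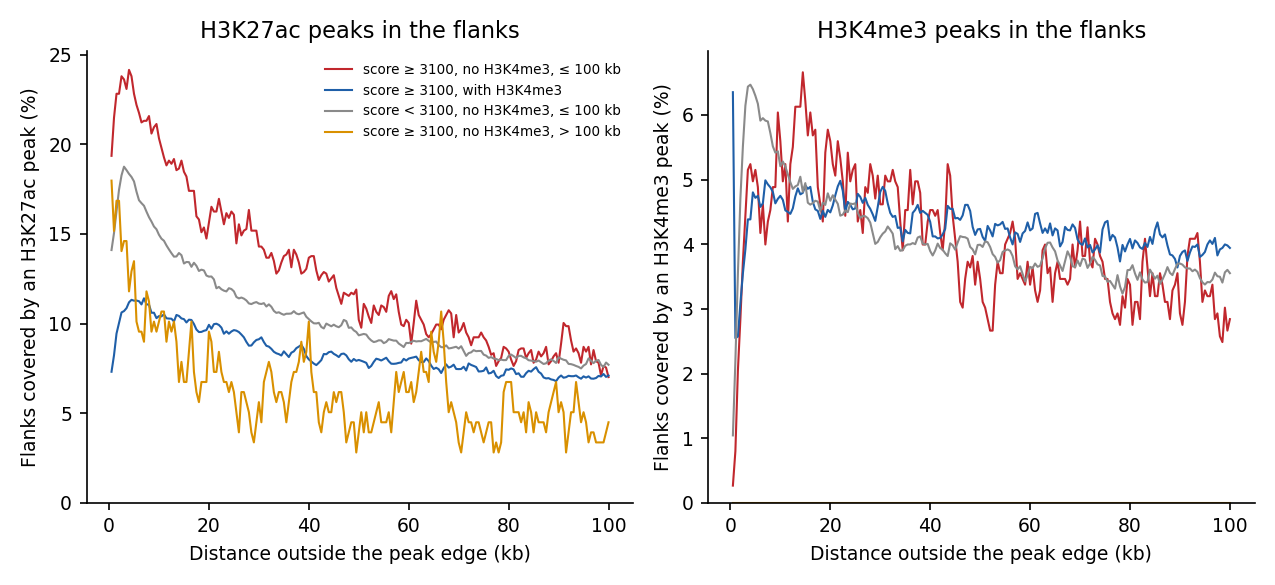
Percentage of peak flanks (both sides) covered by an H3K27ac peak (left) or an H3K4me3 peak (right), against the distance outside the peak edge in kb, with 1 line per class of H3K27ac peaks. At 5 kb H3K27ac covered 22.8% of the flanks of H3K4me3-free ceiling peaks and 11.3% of those of ceiling peaks with H3K4me3.

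Wider peaks had neighbours more often, so the classes were compared at similar width. Among peaks of 2000 to 4000 bp, 85.6% (interval 79.0 to 90.8%) of the 153 H3K4me3-free ceiling peaks had another H3K27ac peak within 12.5 kb. The share was 53.3% (interval 51.7 to 54.9%) for ceiling peaks with H3K4me3 and 78.5% (interval 76.8 to 80.1%) for H3K4me3-free peaks below the ceiling. At 4000 to 6000 bp the shares were 85.5% (interval 80.5 to 89.6%), 73.6% (interval 71.2 to 75.9%) and 87.1% (interval 81.6 to 91.4%). At 6000 to 10000 bp they were 94.4% (interval 88.7 to 97.7%), 86.7% (interval 84.0 to 89.2%) and 94.7% (interval 74.0 to 99.9%). Against ceiling peaks with H3K4me3 the intervals lay apart in the 2 narrower classes and overlapped at 6000 to 10000 bp. Those of H3K4me3-free peaks at and below the ceiling overlapped in all 3.

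**Figure D3:**
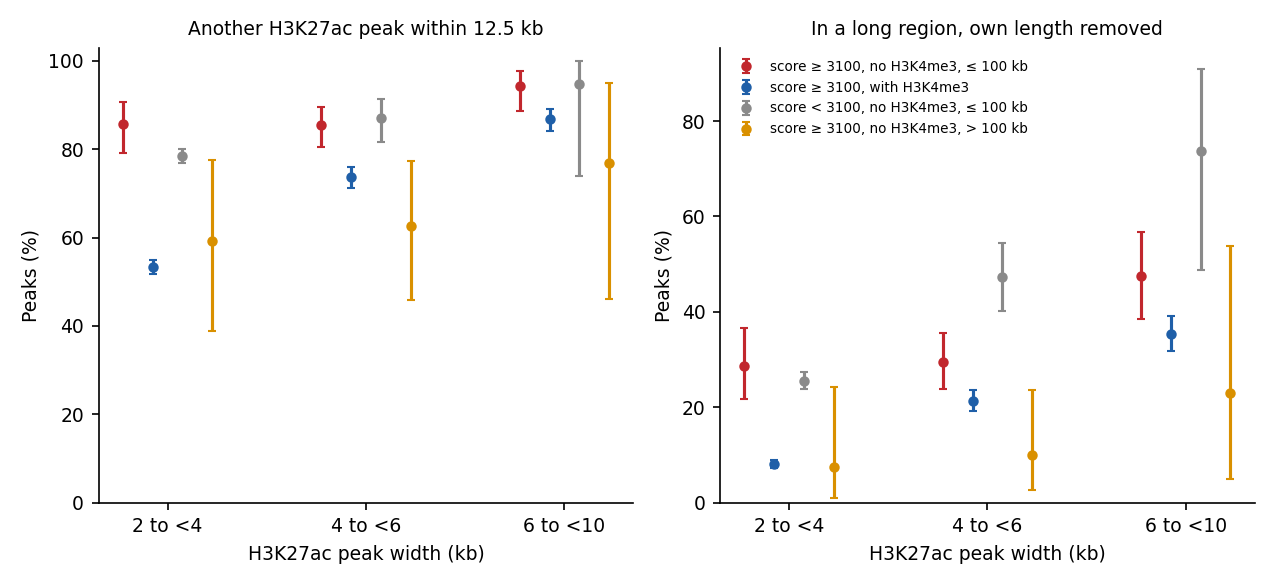
Percentage of H3K27ac peaks with another H3K27ac peak within 12.5 kb (left) and in a long stitched region after removal of the peak's own length (right), for 3 classes of width in kb; points are shares and bars exact 95% intervals. At 2 to 4 kb H3K4me3-free ceiling peaks reach 85.6% on the left, and ceiling peaks with H3K4me3 reach 53.3%.

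The nearest acetylated neighbour of these peaks was mostly below the ceiling. It scored 3100 or more in 90 cases (16.0%, interval 13.1 to 19.3%), against 24.5% (interval 23.4 to 25.5%) for ceiling peaks with H3K4me3, 25.4% (interval 24.6 to 26.2%) for H3K4me3-free peaks below the ceiling and 3.37% (interval 0.701 to 9.54%) for the 89 ceiling peaks beyond 100 kb. It carried H3K4me3 in 142 cases (25.2%, interval 21.7 to 29.0%), against 42.3% (interval 41.4 to 43.2%) for H3K4me3-free peaks below the ceiling and again 3.37% for those beyond 100 kb, which have no H3K4me3 nearby by definition. Some of these neighbours nearly touch. A gap of under 100 bp to the next H3K27ac peak was found for 67 of the 563 peaks, and the smallest was 1 bp. The number of neighbours thus depends on where peaks were divided when called. When H3K27ac peaks within 1000 bp were joined first, 493 peaks met the rule and 81.5% (interval 77.8 to 84.9%) had a further H3K27ac peak within 12.5 kb.

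Stitching all H3K27ac peaks with at most 12.5 kb between them, as is done to find candidate super-enhancers, gave 16134 regions. Long regions were those whose peaks added up to over 11.2 kb, the turning point of their ranked lengths (slope 1 after scaling both axes). H3K4me3-free ceiling peaks lay in 507 regions. Of these peaks, 303 (53.8%, interval 49.6 to 58.0%) were in long regions, compared with 21.0% of all H3K27ac peaks. Since a wide peak lengthens its own region, the count was repeated with the peak's own length removed. It then gave 36.2% (interval 32.3 to 40.4%), compared with 16.2% of all H3K27ac peaks, 15.0% (interval 14.1 to 15.9%) of ceiling peaks with H3K4me3 and 23.7% (interval 22.9 to 24.5%) of H3K4me3-free peaks below the ceiling. At a fixed width of 4000 to 6000 bp the order changed: 29.4% (interval 23.8 to 35.5%) of H3K4me3-free ceiling peaks and 47.3% (interval 40.2 to 54.4%) of the 201 H3K4me3-free peaks below the ceiling lay in such regions. At 2000 to 4000 bp the values were 28.8 and 25.5%, with overlapping intervals. At 6000 to 10000 bp they were 47.6% (interval 38.5 to 56.7%) and, for only 19 peaks, 73.7% (interval 48.8 to 90.9%), again overlapping. Ceiling peaks with H3K4me3 had 8.16, 21.3 and 35.4% from the narrowest to the widest class. These were below the H3K4me3-free ceiling peaks throughout, with intervals that overlapped only at 6000 to 10000 bp.

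Long regions were more frequent around peaks 1 to 25 kb from H3K4me3 than around those farther away. Among peaks 1 to 5 kb from H3K4me3, 67.0% (interval 57.2 to 75.8%) lay in long regions. The share was 67.0% (interval 57.0 to 75.9%) at 5 to 10 kb, 61.3% (interval 53.2 to 68.8%) at 10 to 25 kb, 27.6% (interval 19.3 to 37.2%) at 25 to 50 kb and 38.8% (interval 28.1 to 50.3%) at 50 to 100 kb. Of the 9 peaks within 1000 bp, 55.6% lay in long regions, with an interval (21.2 to 86.3%) too wide to place them. Median widths ran from 4368 bp in these 9 to 5338 bp at 10 to 25 kb. Distance and stitching are not independent, because H3K27ac peaks at most 12.5 kb apart are joined, including those that carry H3K4me3. Another H3K27ac peak lay within 12.5 kb of 100% of peaks 1 to 5 kb from H3K4me3. In the classes from 5 kb outwards this share was 99.0, 86.9, 70.5 and 82.5%. The part of stitching in the pattern was not tested, and other classes were not split by distance. Of the 507 regions, 296 also contained an H3K27ac peak that carried H3K4me3, while 210 contained no H3K4me3 peak at all. Counted by peak, 60.6% (interval 56.4 to 64.6%) of H3K4me3-free ceiling peaks shared a region with a peak that carried H3K4me3. The share was 56.7% (interval 55.8 to 57.6%) for H3K4me3-free peaks below the ceiling, with overlapping intervals. Among all H3K27ac peaks, which include those that carry H3K4me3, 76.0% lay in such a region. In 67 regions the H3K4me3-free ceiling peak was the only peak. In the other 440, an H3K4me3-free ceiling peak was the widest peak of the region in 314. All H3K4me3-free ceiling peaks of such a region together made up a median of 45.1% of its summed length. Score and width are linked, and neither value was computed for other classes.

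Most regions held a single H3K4me3-free ceiling peak. There were 464 with 1, 32 with 2, 9 with 3 and 2 with 4. A region of 131 kb on chromosome 8 (129278430 to 129409316) held 4 among its 21 peaks. These measured 12.5, 5.52, 6.11 and 5.98 kb, beginning at 129278430, 129347152, 129369481 and 129387730, and together they made 44.0% of the 68.5 kb of H3K27ac. Only 2 H3K4me3 peaks lay in the region, and they were weak, with scores of 198 and 159. The other region with 4 was also on chromosome 8 (126754567 to 126810720) and was built differently. Its 4 peaks, of 10.6, 10.1, 6.60 and 10.3 kb, followed each other from 126772651 to 126810720 with gaps of 2, 174 and 207 bp and made up 85.7% of the H3K27ac of the region. An H3K4me3 peak of 2977 bp at the ceiling stood near the opposite end, from 126754650 to 126757626. The 4 peaks thus formed an almost unbroken acetylated block on 1 side of ceiling H3K4me3.

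Among the 9 regions with 3, the longest by summed length was on chromosome 16 (93105660 to 93309701), where 36 peaks made up 109 kb of H3K27ac. The 3 H3K4me3-free ceiling peaks, of 7.85, 12.2 and 4.23 kb, made only 22.3% of it, and all lay on the same side of both H3K4me3 peaks of the region, which scored 230 and 109. On chromosome 14 (26271498 to 26385428) peaks of 11.2, 18.7 and 4.41 kb made 49.3% of 69.6 kb, and the region's only H3K4me3 peak was at the ceiling near its start. On chromosome 13 (13866137 to 13963104) peaks of 16.3, 7.16 and 7.62 kb made 49.3% of 63.1 kb, at higher coordinates than H3K4me3 peaks that scored 1874 and 526. The map of these 5 regions shows the H3K4me3 peaks at 1 end in 3 of them, but it draws only H3K4me3 inside a region. On chromosome 14 the 4.41 kb peak had its nearest H3K4me3 peak past the other end, 56.8 kb away. The same held on chromosome 13 for the peaks of 7.16 and 7.62 kb, at 39.9 and 27.8 kb. In the 5 regions the ceiling H3K27ac lay up to 100 kb from H3K4me3 within 1 stitched stretch. The regions on chromosomes 16, 14 and 13 were taken from the 9 with equal numbers by their summed length.

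**Figure D4:**
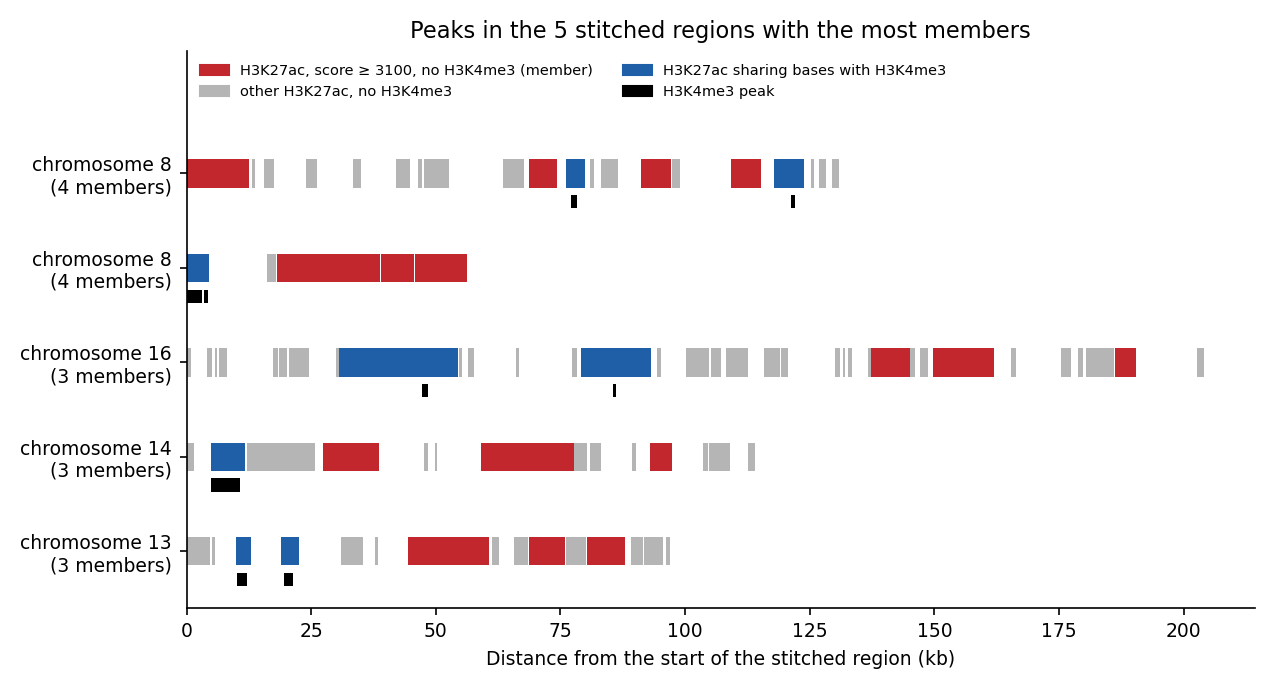
Peaks in the 5 stitched regions with the most H3K4me3-free ceiling peaks, against the distance from the start of each region in kb: H3K4me3-free ceiling peaks in red, other H3K27ac peaks without H3K4me3 in grey, H3K27ac peaks with H3K4me3 in blue and H3K4me3 peaks in black below. The second region, on chromosome 8, shows 4 red peaks almost without gaps (2, 174 and 207 bp), and the third, on chromosome 16, shows 3 among 36 peaks.

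Another region, on chromosome 6 (68148268 to 68172454), had 3 H3K4me3-free ceiling peaks of 8.11, 3.22 and 9.54 kb that made up 96.6% of its H3K27ac, and no H3K4me3 peak. One of these, at 68158541 to 68161757, scored 3145, and the nearest H3K4me3 peak lay 20.1 kb from the closest of them. Across the whole genome, the median gap to the next peak of the set was 420 kb (interval 294 to 596 kb). Of the 563 peaks, 170 had another within 100 kb and 59 had another within 12.5 kb. This spacing was not counted for other classes.

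The peaks were found on all autosomes and the X chromosome, and on none of the unplaced contigs or the Y chromosome. The Y chromosome had only 3 H3K27ac peaks, none of them at the ceiling. No contig had more than 2 ceiling peaks, so the absence there says little. Chromosome 6 had the most, with 54, or 14.2% (interval 10.8 to 18.1%) of its 381 ceiling peaks, and chromosome 7 had 15 of 454, or 3.30% (interval 1.86 to 5.39%). Chromosome 12 followed chromosome 6 with 11.2% (interval 7.90 to 15.3%), and the next were chromosome 1 with 10.4%, chromosome 13 with 10.3% and chromosome 8 with 10.2%. Most intervals overlapped one another. The interval of chromosome 7 lay below those of chromosomes 1, 3, 6, 8, 11, 12, 13 and 16.

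**Figure D5:**
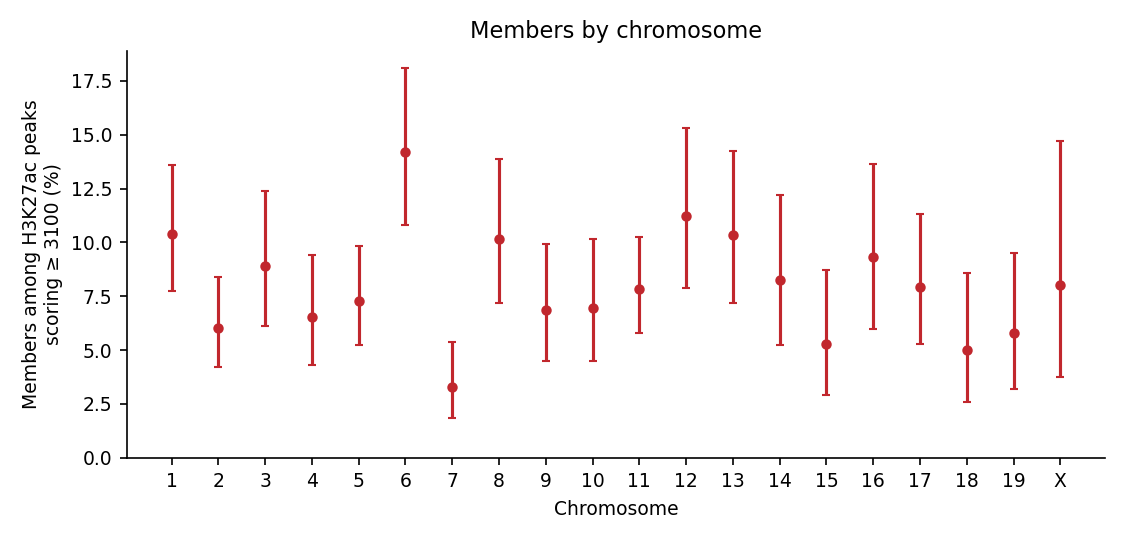
Percentage of the H3K27ac peaks scoring 3100 or more on each chromosome that are H3K4me3-free with H3K4me3 within 100 kb; points are shares and bars exact 95% intervals. Chromosome 6 stands highest at 14.2% and chromosome 7 lowest at 3.30%.

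Part of the value for chromosome 6 came from a single 2 Mb stretch (68000001 to 70000000). It held 15 of the 54 peaks, and of its 26 ceiling peaks 10 carried H3K4me3 and 1 lay beyond 100 kb. The first Mb contained 8 and the second 7, the highest numbers of any 1 Mb bin in the genome, where 272 bins held 1 such peak and 80 held 2. Without this stretch chromosome 6 had 39 of 355, or 11.0% (interval 7.93 to 14.7%). The 15 peaks measured 3203 to 9536 bp, and their distances to H3K4me3 ran from 3.05 to 86.3 kb. A stretch of chromosome 12 (115000001 to 117000000) with a similar number of H3K27ac peaks, 145 against 154, contained just 3 H3K4me3-free ceiling peaks, of 17.5, 6.10 and 5.62 kb. There 7 of the 15 ceiling peaks fell outside the rule because H3K4me3 was more than 100 kb away, so the 2 stretches cannot be compared by the number that met the rule.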

How the data were processed

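H3K27ac and H3K4me3 were measured by ChIP-seq in 1 library each, and the IgG library was not analysed here. Samples were grouped by title. Per the submitters' processing notes, the authors called peaks with MACS on mm9. Its version, the aligner, filters and read numbers are not stated by the labels. The score deposited for each peak is the authors' own value, and no header or label defines it. Scores were used only within a list.

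Distances are bases between peak edges, and 1 shared bp counted as overlap (bedtools 2.31.1, Python 3.11.15, NumPy 2.4.6, pandas 2.3.3, SciPy 1.17.1). The code was tested on simulated data. The reference table follows GRCm38.p6 and not mm9, so the planned gene annotation, gene lists, markers, sequence composition and motifs were not made, and no sequence is shown.

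Peaks named by position are the 10 widest, those in the 5 stitched regions with the most members (ties by summed length), the 5 nearest to and farthest from H3K4me3 and the 5 highest-scoring. Others were chosen after their values were seen: the region on chromosome 6, the 2 Mb stretches and those under other observations. The members and lists were chosen with earlier results of these data known. Classes by width and by distance were chosen without such a plan. Alternatives covered the score limit, distances, weak H3K4me3 peaks, the joining of peaks, stitching and 2 stretches left out.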

Additional observations from a re-analysis of the deposited data

How the results depend on the processing

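The 5 main values were recomputed under alternatives, which gave 39 values. Of these, 26 fell inside the reported interval (or, for numbers of peaks, within 1.5 times) and 13 did not. These values have no direction to reverse. A score limit of 1000 gave 1971 peaks with a median width of 3241 bp, 82.4% with a neighbour within 12.5 kb and 40.5% in long regions. Joining H3K27ac peaks within 1000 bp first gave a median width of 5399 bp, a median distance to H3K4me3 of 17.5 kb (17511 bp), 81.5% with a neighbour and 48.5% in long regions. Without a limit on distance the median distance was 19.0 kb (19049 bp) and 85.0% had a neighbour. With 5000 and 25000 bp as the neighbour distance, 74.2 and 94.1% had one, as the changed limit must give, and stitching at 5000 bp put 43.2% in long regions. Without a limit on distance only peaks beyond 100 kb are added, so the median distance could not fall. Joining removes gaps of at most 1000 bp by definition. The cause of the remaining shifts was not tested. Leaving out the stretches on chromosomes 6 and 12 moved none of the 5 values outside its interval, nor did requiring a score of exactly 3100, a gap of at least 1000 bp or an H3K4me3 score of at least 100, although the last raised the number from 563 to 712. No paired analysis was possible because there is 1 library per mark. Unknown depth limits what a missing H3K4me3 peak shows, and the tied scores prevent ranking by strength.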

Other observations

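Some further positions among the 563 peaks were picked after their values were seen. After the 2 bins on chromosome 6, the 1 Mb bin with the most H3K4me3-free ceiling peaks was on chromosome 8 (74000001 to 75000000), with 6 of its 22 ceiling peaks. They measured 8.14, 5.42, 8.72, 5.37, 14.2 and 13.6 kb, the widest lying at 74600055 to 74614226. For 5 of these 6 the nearest H3K4me3 peak was at the ceiling, at 4.77 to 53.5 kb. In the region at 129278430 both H3K4me3 peaks inside it were weak. The widest H3K4me3-free ceiling peak there had its nearest H3K4me3 peak outside the region, 18.5 kb away, so these groups were not compared.

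The peaks farthest from any H3K4me3 peak at the ceiling were on chromosome 5 (82208635 to 82214729, 2629 kb away, and 17591086 to 17594928, 2612 kb away) and chromosome 19 (50342556 to 50348341, 2347 kb away). Each met the rule only through a weak H3K4me3 peak, with scores of 52.5, 58.6 and 68.5. The most heavily acetylated surroundings were those of a 4579 bp peak on chromosome 6 (120566805 to 120571383), with 61.3 kb of other H3K27ac within 50 kb of its edges, followed by peaks on chromosome 5 (137138283 to 137147964, 59.0 kb) and chromosome 17 (47684444 to 47698123, 56.3 kb). A 2333 bp peak on chromosome 1 (140163351 to 140165683) had no other H3K27ac peak within 50 kb, the nearest being 73.1 kb away. The same held for the peak at 17591086 on chromosome 5, with the nearest 61.75 kb away. The largest such gap among the 563 peaks was 104 kb.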
